A study of Mus musculus with 34 samples.

Results

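The chromatin remodeller subunit genes are 35 genes chosen by name: 20 encode subunits of the SWI/SNF (BAF) complexes and 15 encode ATPases or partners of the other remodeller families, 6 of ISWI, 6 of CHD and 3 of INO80 type. They were found among 21631 protein-coding genes of a RefSeq gene table. For each gene the accessible sites inside its interval or within 10 kb of it were counted. The rule uses gene names and no measured value, though the list was drawn up with earlier results of these data known.

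Open chromatin was profiled by ATAC-seq, in which the Tn5 transposase inserts sequencing adapters where DNA is exposed. The cells were MEF (fibroblasts grown from mouse embryos) and EB (embryoid bodies, clusters in which embryonic stem cells differentiate). Doxycycline (dox) switches on Etv2, an ETS family factor that specifies blood and vessel progenitors. The labels give 34 samples in 17 groups of 2. The Brg1 knockdown (KD) MEF were taken on day 0 without dox, and on days 1, 2 and 7 both with and without dox. The iHA-Etv2 MEF without knockdown were taken with dox on days 1, 2 and 7, from the day-7 culture also as Flk1-positive cells, and without dox on day 0. The Brg1-floxed EB all received dox and were taken on day 4, with or without 4-hydroxytamoxifen (4OHT), and the series design calls these EB Brg1 knockouts. The other EB were taken at 12 h as induced Flk1-positive, induced unsorted and uninduced cells. Flk1 is the VEGF receptor on vessel and blood progenitors. The knockdown reagent, the Cre driver and the number of clones are not given in the sources used here.

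Remodellers use ATP to slide, evict or exchange nucleosomes. SWI/SNF complexes are built around Brg1 (the product of Smarca4) or its paralogue Brm (Smarca2), on a shared core, and exist as canonical BAF, as PBAF and as a smaller non-canonical form. ISWI enzymes space nucleosomes, CHD enzymes include the NuRD ATPases, and the INO80 type enzymes slide nucleosomes or exchange histone variants. SWI/SNF complexes are known for opening enhancers, and Brg1 is a known requirement for early development and for blood and vessel formation.

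The unit of measurement is the summit, a base of locally highest signal in a called peak. Each of the 15 groups outside the floxed EB has 1 deposited list for both replicates, and nothing measured in such a list has a replicate error or a p-value. The floxed EB have 1 list per library, and there a peak held at most 1 summit. In the other 15 lists 1 peak could hold several, with a highest number per list between 69 and 190. Summit counts of the floxed lists and of the other lists are therefore unlike measures of the number of sites. Nothing in the labels says whether replicates came from separate cultures. The 19 lists held between 11188 summits (KD MEF without dox, day 7) and 85498 summits (uninduced EB, 12 h). Read depth was not analysed here, and list length is given beside each comparison in its place. In bulk chromatin, fewer cells with a site open and a less open site in each cell cannot be told apart. Summits near 8 MEF markers numbered 4 to 61 in MEF lists and 4 to 37 in EB lists, and those near 9 EB markers 2 to 12 in MEF lists and 13 to 41 in EB lists. Sox2 and Dppa4, both stem cell markers, had 0 summits in all 12 MEF lists, and Dppa4 also had 0 in all 4 floxed EB lists. On day 7, 5 of 8 MEF markers were at 0 in KD MEF with dox, 6 in KD MEF without dox, 5 in MEF with dox and no knockdown, and 4 in the Flk1-positive cells. Prrx1, Col3a1 and Thy1 were at 0 in all of these lists, so the labelled cell type could not be checked on them there.

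The starts of 5 genes carry the pattern described first, and are shown as RefSeq promoter windows (GRCm38.p6, the mm10 assembly), 250 bases before to 50 bases after the start, on the strand of the gene. Smarca4 lies at chr9:21615919-21616218 on the plus strand and is the gene targeted in these cells. Smarca5 lies at chr8:80739410-80739709 on the minus strand and had a start summit in all 19 lists. Actl6b (chr5:137553296-137553595, plus), Dpf1 (chr7:29303755-29304054, plus) and Smarca1 (chrX:47892564-47892863, minus) had start summits in a larger share of EB than of MEF lists. Capitals mark matches to 4 motifs searched on both strands, the ETS core CCGGAA, the CCAAT box CCAAT, the YY1 core AAGATGG and the cyclic AMP element TGACGTCA. In these 5 windows all capitals are CCAAT boxes, read as ATTGG on the other strand.
Smarca4: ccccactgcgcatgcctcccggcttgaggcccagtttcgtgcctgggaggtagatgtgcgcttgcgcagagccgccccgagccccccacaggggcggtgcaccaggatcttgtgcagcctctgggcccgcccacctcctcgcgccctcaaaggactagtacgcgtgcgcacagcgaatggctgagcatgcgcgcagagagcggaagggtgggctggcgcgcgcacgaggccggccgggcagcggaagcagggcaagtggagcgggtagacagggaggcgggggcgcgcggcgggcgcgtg
Smarca5: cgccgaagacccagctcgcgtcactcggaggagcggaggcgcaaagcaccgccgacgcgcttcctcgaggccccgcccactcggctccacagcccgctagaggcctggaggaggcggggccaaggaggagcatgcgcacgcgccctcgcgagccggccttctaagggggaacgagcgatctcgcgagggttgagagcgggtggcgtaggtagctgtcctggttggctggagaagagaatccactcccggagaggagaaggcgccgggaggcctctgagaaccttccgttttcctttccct
Actl6b: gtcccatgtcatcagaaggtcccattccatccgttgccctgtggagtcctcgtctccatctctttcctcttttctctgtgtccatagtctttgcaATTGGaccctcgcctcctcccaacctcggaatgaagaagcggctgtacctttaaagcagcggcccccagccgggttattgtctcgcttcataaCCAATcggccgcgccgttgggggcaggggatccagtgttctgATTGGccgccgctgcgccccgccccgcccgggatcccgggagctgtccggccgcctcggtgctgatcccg
Dpf1: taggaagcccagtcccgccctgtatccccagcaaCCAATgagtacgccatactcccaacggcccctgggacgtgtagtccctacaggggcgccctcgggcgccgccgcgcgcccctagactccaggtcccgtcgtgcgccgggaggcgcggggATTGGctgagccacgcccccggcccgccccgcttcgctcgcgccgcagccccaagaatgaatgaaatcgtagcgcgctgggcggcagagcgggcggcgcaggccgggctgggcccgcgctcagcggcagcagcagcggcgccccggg
Smarca1: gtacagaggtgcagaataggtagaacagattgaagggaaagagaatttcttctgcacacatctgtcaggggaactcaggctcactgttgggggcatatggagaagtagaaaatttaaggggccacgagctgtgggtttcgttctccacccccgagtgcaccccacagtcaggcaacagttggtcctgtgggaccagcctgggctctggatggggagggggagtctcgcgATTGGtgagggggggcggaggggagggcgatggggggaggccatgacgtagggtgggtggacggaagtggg

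Among the 31 promoter windows of the 28 members in the RefSeq table (3 members have 2 windows each), 8 held an ETS core (25.8%), against 18.9% of 21045 promoters of all genes. The CCAAT box was in 9 of 31 (29%), against 38.5% of all promoters, and the YY1 core in 2 of 31 (6.5%), against 6.3%. By class the ETS core was in 35% of 20 SWI/SNF windows and 9.1% of 11 others, and the CCAAT box in 15% and 54.5%. The cyclic AMP element was in 0 of 31, against 2.3% of all promoters. Actl6b held 3 CCAAT boxes, Dpf1 held 2 and Smarca1 held 1, while Smarca4 and Smarca5 held none of the 4 motifs. ETS cores were in the windows of Smarca2, Smarcc1, Smarcd1, Arid1a, Pbrm1, Brd9 and Chd8. The windows were rich in CpG, with a median of 32 CpG dinucleotides, against 13 in all promoters. These matches are letters in a window and were not tested as sites.

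The starts of remodeller genes were open in most lists. In the 17 lists other than those of KD MEF on day 7, between 64.3% and 96.4% of the 28 members with a RefSeq start had a summit within 500 bp of it, against 34.5% to 65.4% of 17274 genes. On day 7 the KD MEF lists had a start summit at 9 of 28 members with dox and 8 of 28 without (32.1% and 28.6%), against 17.2% and 15.5% of all genes. Smarca2, Actl6a, Smarca5, Chd8 and Ep400 had a start summit in all 19 lists, a pattern shared by 10.3% of all genes. Widening to the 17 lists, 13 of 28 members (and 29.5% of all genes) had one in every list. The share of open starts was higher among members than among all genes in each of the 19 lists.

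**Figure D1:**
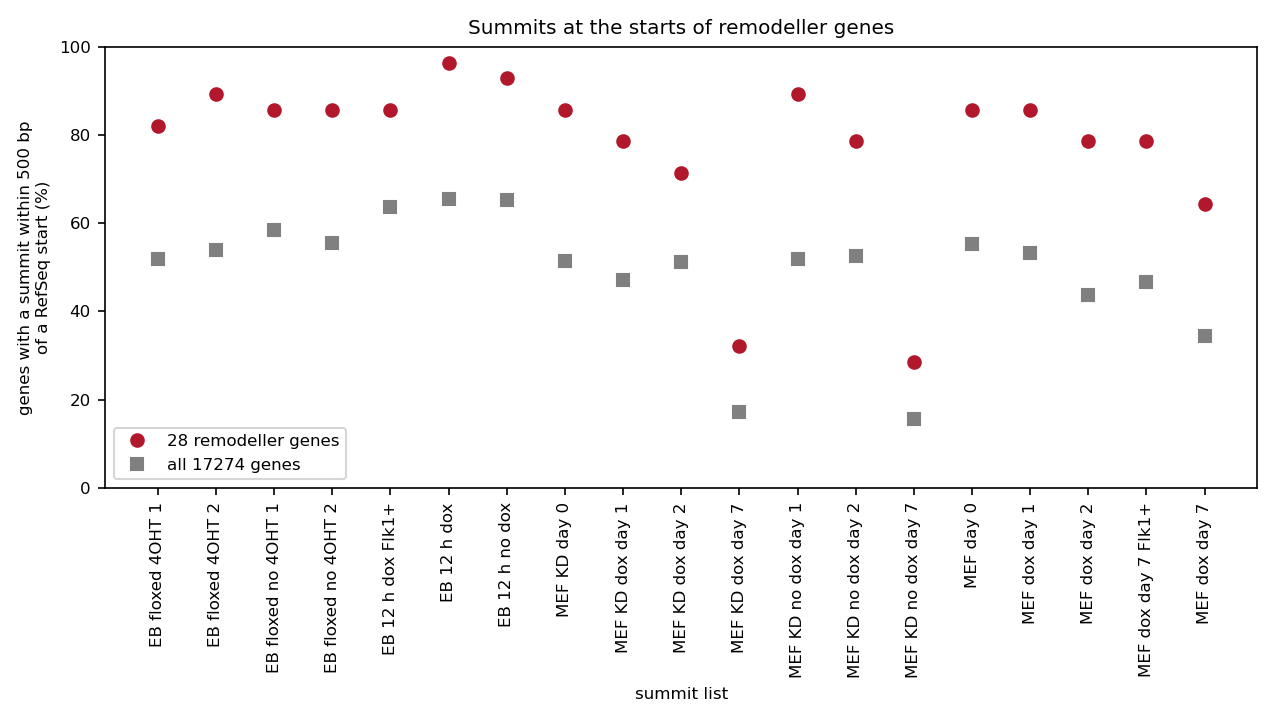
Percent of genes with a summit within 500 bp of a RefSeq start (vertical axis) in each of the 19 summit lists (horizontal axis), for the 28 remodeller genes with a RefSeq start (circles) and all 17274 genes with one (squares). The circles lie between 64.3% and 96.4% outside the 2 day-7 KD MEF lists, where they lie at 32.1% and 28.6%.

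Members differed in how many sites they had and in whether these were shared. Joining summits of all lists within 250 bp of each other gave 255 regions at the members, of which 10 were in all 19 lists and 85 (33.3%) in 1 list. Over all genes 2226 of 94048 regions were in all 19 lists and 36.5% in 1 list. Regions at a member's own start were in a median of 17 lists, and regions inside the gene in a median of 2. Over all genes the median was 15 for regions at a gene start and 2 for regions away from starts. For the 7 members without a RefSeq start, a region at the edge of the interval counts as inside or beside the gene. An example is chr11:99230457-99230850 at Smarce1, in 17 lists. Counts of regions away from starts, here and below, can therefore include gene starts. Arid1b, the longest member at 353.4 kb, had 42 regions, while Smarca4 had 1, at its start. Regions seen in MEF lists only were 42.1% of the 152 SWI/SNF regions and 29.1% of the 103 others, against 35.5% of the regions of all genes. Without Arid1b the SWI/SNF value was 32.7% of 110 regions. Regions seen in EB lists only were 21.1% at SWI/SNF genes and 29.1% at the others, against 39.6% at all genes.

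**Figure D2:**
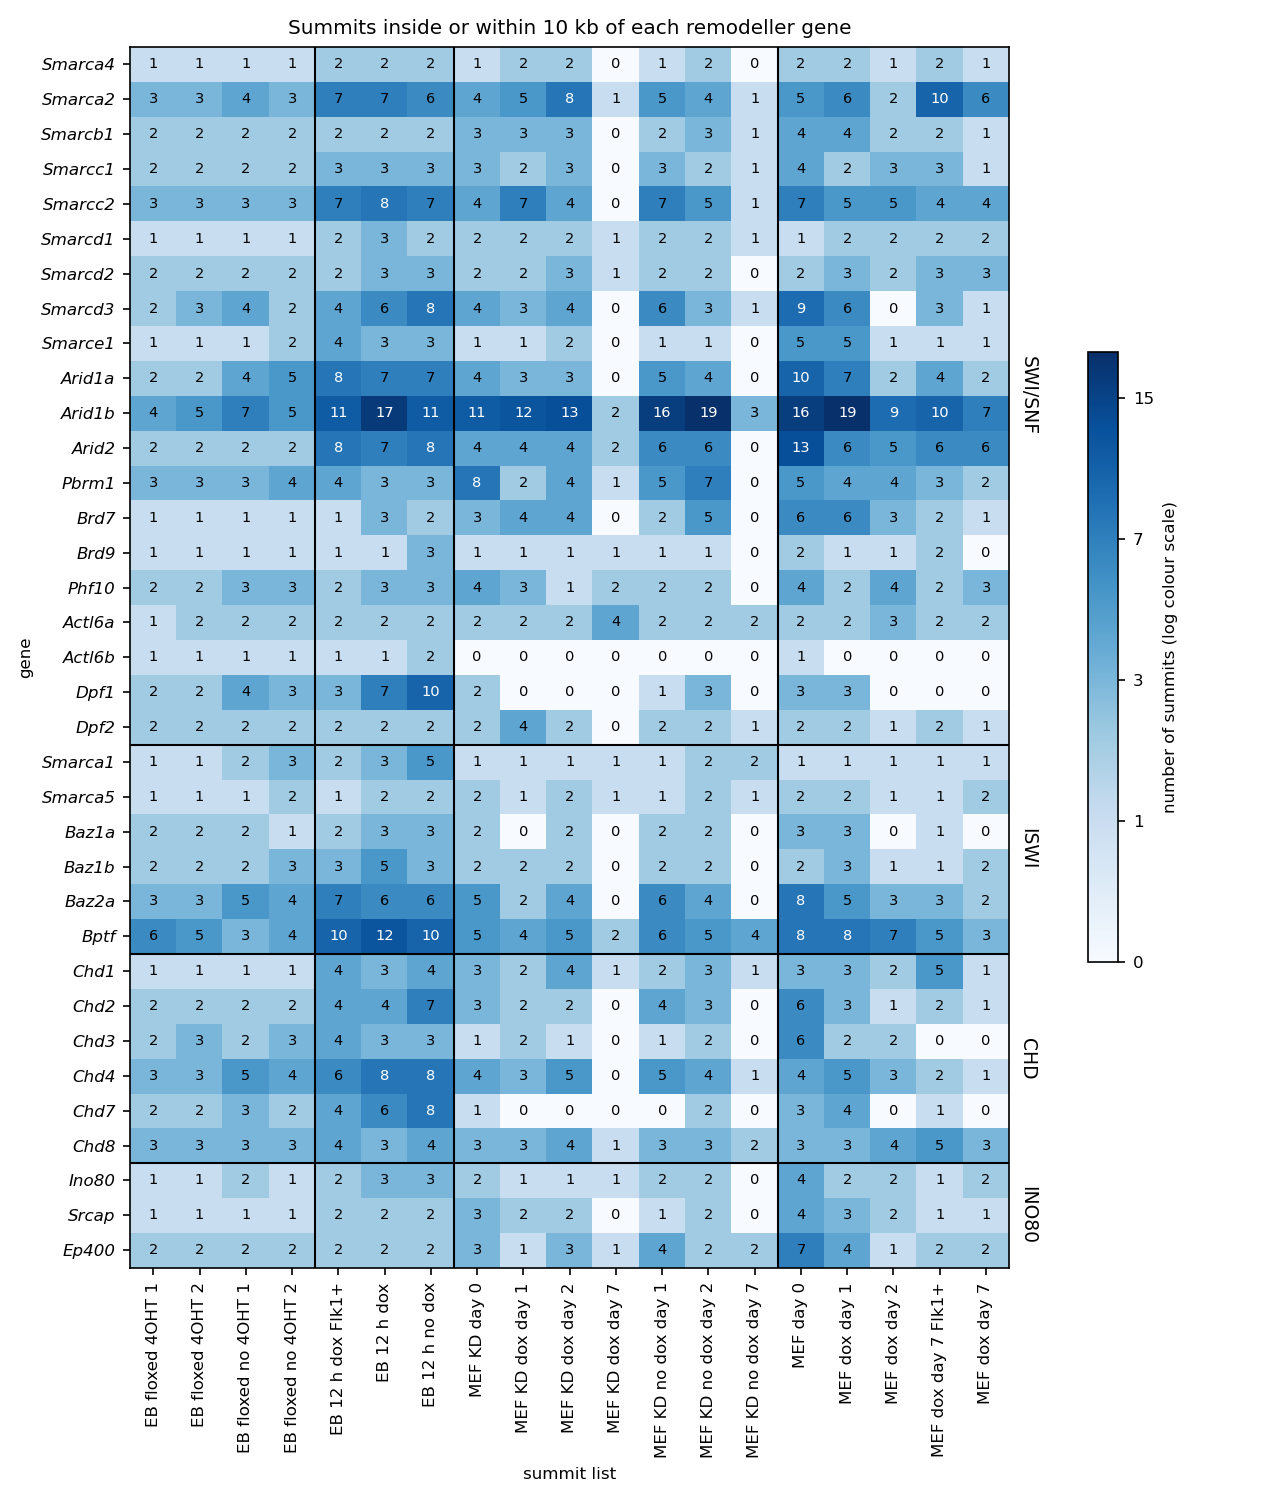
Number of summits inside or within 10 kb of each of the 35 genes (rows, grouped by family) in each of the 19 lists (columns, EB then MEF), written in the cells and shown on a log colour scale. Actl6b is at 0 in 11 of the 12 MEF columns, and both day-7 KD columns have 19 genes at 0.

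Smarca4, which encodes Brg1, had few summits in every group. The 2 libraries of floxed EB with 4OHT had 1 and 1, and the 2 without 4OHT also had 1 and 1. The KD MEF had 1 on day 0, 2, 2 and 0 on days 1, 2 and 7 with dox, and 1, 2 and 0 on those days without it. The MEF without knockdown had 2 on day 0 and 2, 1 and 1 on days 1, 2 and 7, the day-7 Flk1-positive cells had 2, and each of the 3 EB lists from 12 h had 2. All of these summits lay in 1 region at the gene start, chr9:21615822-21616411, so the counts of 2 are a split of 1 site. A summit at the start does not measure RNA or protein and does not resolve a deleted exon, so it checks neither the knockdown nor the deletion.

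Smarca2, which encodes the paralogous ATPase Brm, had more sites and a wider range. It had 3 and 3 summits with 4OHT, against 4 and 3 without it. The KD MEF had 4 on day 0, 5, 8 and 1 on days 1, 2 and 7 with dox, and 5, 4 and 1 without. The MEF without knockdown had 5, 6, 2 and 6 on days 0, 1, 2 and 7, and 10 in the day-7 Flk1-positive cells, the highest count of this gene. Its start region was in all 19 lists, and a region 142873 bp inside the gene, chr19:26747724-26748289, was in 17. A region further in, chr19:26758457-26758886, was in 7 MEF lists and 0 EB lists.

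The shared core genes had 0 to 9 summits. Smarcb1, the small core subunit known as a tumour suppressor, had 0 to 4 summits over the 19 lists with a median of 2, and Smarcc1, one of the paired scaffold subunits, likewise had 0 to 4 with a median of 2. Smarcc2, the other scaffold gene, had 0 to 8 with a median of 4. These include a region in 18 lists just past the gene's end, chr10:128493066-128494121, which lies at the start of Myl6. Smarcd1 had 1 to 3 summits and Smarce1, the HMG-box subunit, had 0 to 5. The RefSeq start of Smarcd2 had a summit in 0 lists, and the nearest summit lay a median of 5348 bp away. That is a region at the upstream edge of the Smarcd2 interval, chr11:106272695-106273115, which was in 17 lists. Smarcd3, the subunit known from heart and muscle, had a start summit in 7 of 19 lists and 0 to 9 summits in all. The RefSeq start used lies at position 24602002, inside the interval chr5:24592622-24624456 of this minus-strand gene. Its upstream edge was thus not counted as a start.

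Arid1a and Arid1b encode the alternative DNA-binding subunits of canonical BAF. Arid1b had between 2 summits (KD MEF with dox, day 7) and 19 summits (KD MEF without dox, day 2, and MEF with dox, day 1). Of its 42 regions, 28 were in MEF lists only, 8 in EB lists only and 6 in both. Of the 28 MEF regions, 14 were in KD lists only, 5 in lists without knockdown only and 9 in both kinds. There are 7 KD lists and 5 without knockdown, and the KD lists without dox on days 1, 2 and 7 have no counterpart. Of the 42 regions, 18 were in 1 list, and no share of all genes is given here for the split by knockdown. One region 194938 bp from the start, chr17:5189871-5190459, was in all 19 lists. Another, chr17:5089423-5089704, was in all 7 EB lists and 0 MEF lists. Arid1a had 0 to 10 summits with a median of 4.

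**Figure D3:**
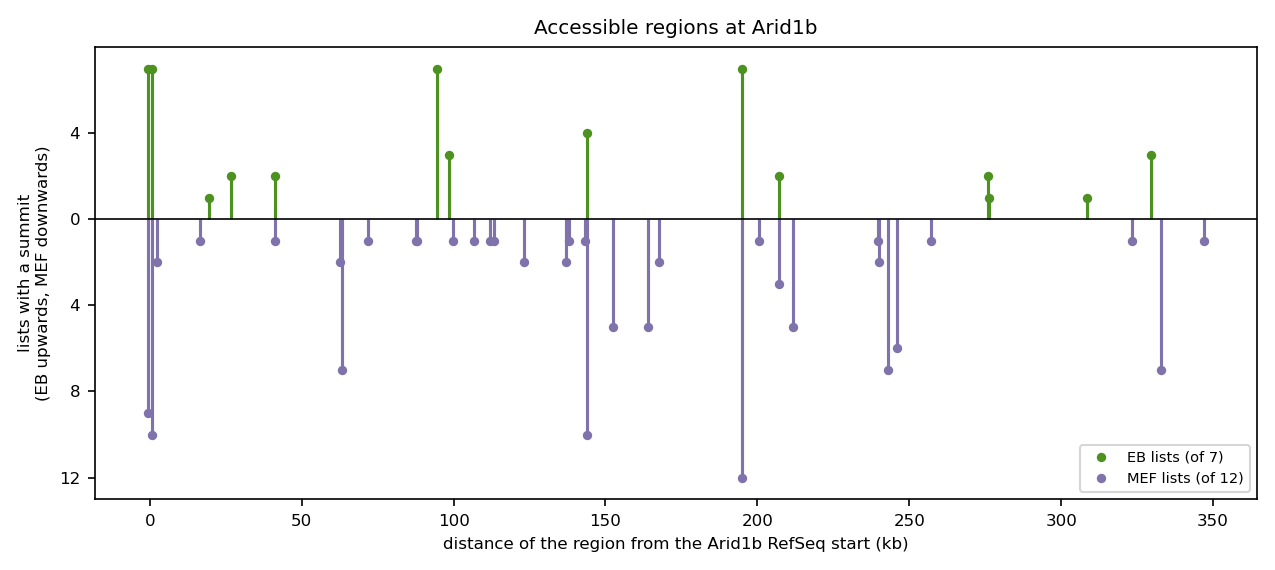
Regions at Arid1b by their distance from the RefSeq start in kb (horizontal axis), with the number of EB lists (of 7, upwards) and of MEF lists (of 12, downwards) that hold a summit there. The region 194938 bp from the start reaches 7 and 12, while 28 of the 42 regions point only downwards.

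The PBAF genes Arid2, Pbrm1, Brd7 and Phf10, and Brd9 of the non-canonical complex, ranged from 0 to 13 summits. Arid2 had its highest count, 13, in MEF of day 0, and 2 in each of the 4 floxed EB libraries, where a peak held at most 1 summit. One narrow region just inside Arid2, chr15:96287658-96287731, had a summit in all 5 MEF lists without knockdown and all 3 EB lists from 12 h, and in 0 of the 7 KD lists and 0 of the 4 floxed lists. The floxed libraries without 4OHT have no Brg1 loss by label and lacked it too. The 8 lists that hold it are those whose scores include values with more than 6 significant digits, and 0% of the scores in the other 11 lists have them. Over the genome 7 of the 8519 regions found in all 8 of those lists were in none of the other 11. Processing and knockdown cannot be told apart for this site. Brd7 had 1 summit in each floxed library and up to 6 in MEF, with 5 of its 7 regions in MEF lists only.

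Of the subunits known from neurons, Actl6b was the member most divided by cell type. Dpf1 was divided like Chd7, each with a summit in 7 of 7 EB lists and 5 of 12 MEF lists. The share of all genes with such a split is not given here. Actl6b, the neuronal partner of the Actl6a slot, had a start summit in 7 of 7 EB lists and 0 of 12 MEF lists, where its only summit was 1 in MEF of day 0, outside the start. Actl6a, used in dividing cells, had a start summit in all 19 lists. Dpf1 had a start summit in 7 of 7 EB lists and 5 of 12 MEF lists: the KD MEF on day 0 and on days 1 and 2 without dox, and the MEF without knockdown on days 0 and 1. It had 0 summits in all 3 KD MEF lists with dox, in KD MEF without dox on day 7, and in the MEF lists of days 2 and 7, sorted cells included. In EB of 12 h Dpf1 had 3 summits in Flk1-positive cells and 7 in unsorted induced cells, and 10 in uninduced cells. Dpf2, its widely used paralogue, had 0 to 4. Summits near 4 neuron markers numbered 4 to 48 in EB lists and 5 to 24 in MEF lists, and their part in these counts was not tested.

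Among the ISWI genes, Smarca1 and Smarca5 encode the alternative ATPases. Smarca5 had 1 or 2 summits, with a start summit in all 19 lists at the 83.2 to 99.8 percentile of each list's scores. Smarca1 had a start summit in 4 of 7 EB lists and 1 of 12 MEF lists. A region inside Smarca1, chrX:47866745-47867344, was in all 19 lists. The partner genes Baz1a, Baz1b and Baz2a had 0 to 8 summits. Bptf, of the NURF complex, had 2 to 12, and a broad region inside it, chr11:107049047-107050753, held up to 4 summits of 1 list.

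Of the CHD genes, Chd8 had a start summit in all 19 lists and Chd4, a NuRD ATPase, in 16. Chd7, known for its role in neural crest and for CHARGE syndrome in humans, had 4, 6 and 8 summits in induced Flk1-positive, induced unsorted and uninduced EB of 12 h. In MEF it had 0 to 4, and it was at 0 in 5 of 7 KD lists and 2 of 5 lists without knockdown. Of its 11 regions, 6 were in EB lists only and 3 in MEF lists only. Chd1, Chd2 and Chd3 had 0 to 7 summits. Of the INO80 type genes, Ep400 had a start summit in all 19 lists, Ino80 in 18 and Srcap in 15, and all of them had 0 to 7 summits.

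The first question on Brg1 loss was whether SWI/SNF genes lost sites after 4OHT in floxed EB, and in what measure the other remodellers did. Arid1a, Phf10 and Dpf1 among the 20 SWI/SNF genes, and Smarca1, Baz2a and Chd4 among the 15 others, had fewer summits in both 4OHT libraries than in both without it. That is 3 of 20 and 3 of 15, against 17.4% of 16814 genes tested. Bptf was higher, so 0 of 20 and 1 of 15 rose without overlap, against 1.27% of genes. The 2 shares, 15% and 20%, lie on either side of the background. With 2 libraries against 2, an exact permutation test gives no two-sided p below 0.333, which each of these 7 genes has.

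Arid1a had 2 and 2 summits with 4OHT, against 4 and 5 without. Dpf1 had 2 and 2 with 4OHT, against 4 and 3 without. Phf10 had 2 and 2 with 4OHT, against 3 and 3 without. The groups do not overlap for these 3 genes, and each of them had a summit at a RefSeq start in all 4 libraries. Arid1a has 2 such starts, and the site at 1 of them was missing with 4OHT, as described below. Smarca1 had 1 and 1 with 4OHT, against 2 and 3 without. Baz2a and Chd4 each had 3 and 3 with 4OHT, against 5 and 4 without. Bptf had 6 and 5 with 4OHT, against 3 and 4 without, and its broad inner region held 3 and 2 summits with 4OHT, against 1 and 1 without. Arid1b had 4 and 5 with 4OHT, against 7 and 5 without, so its groups met at 5, and Baz1a had 2 and 2, against 2 and 1.

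The libraries with 4OHT held 17946 and 20229 summits, and those without 31436 and 23823. The counts were equal between the 4OHT libraries in 30 of 35 members, and between those without 4OHT in 18 of 35, against 75.5% and 61.7% of all genes tested. With all 4 lists shortened to their 17946 highest-scoring summits, 2 of 20 SWI/SNF genes (Arid1a and Dpf1) and 1 of 15 others (Baz2a) were lower, against 7.36% of all genes. Higher were then 2 of 20 (Smarca2 and Arid1b) and 2 of 15 (Bptf and Baz1a), against 6.06%. Markers of other cell types also had fewer summits with 4OHT. The 9 progenitor markers had 7 and 6 with 4OHT, against 15 and 12 without, the 4 neuron markers 4 and 7, against 16 and 13, and the 8 MEF markers 4 and 7, against 17 and 15. The 9 EB markers had 13 and 14 with 4OHT, against 16 and 17 without. Of the progenitor markers Lmo2 and Cdh5 were at 0 in both 4OHT libraries, and Gata1 in all 4. The part of other cell types in these counts was not tested. Summed over both libraries, the SWI/SNF genes had 79 summits with 4OHT and 97 without, a ratio of 0.814. The other remodellers had 64 with 4OHT and 72 without, a ratio of 0.889. Over all genes the ratio was 0.763 (45885 with 4OHT against 60100 without, a summit counted for each gene whose window holds it), and over whole lists 0.691. SWI/SNF genes held 55.2% of the members' summits with 4OHT and 57.4% without, a difference of -2.15 percentage points (Newcombe 95% interval -13.1 to 8.77, counting error only). Leaving out 1 library changed the counts of lower genes. They were 3 of 20 SWI/SNF genes and 3 of 15 others without 4OHT replicate 1, against 20.4% of all genes, and 5 and 3 without 4OHT replicate 2, against 25.4%. They were 5 and 5 without control replicate 1, against 22.8%, and 6 and 5 without control replicate 2, against 35.9%.

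**Figure D4:**
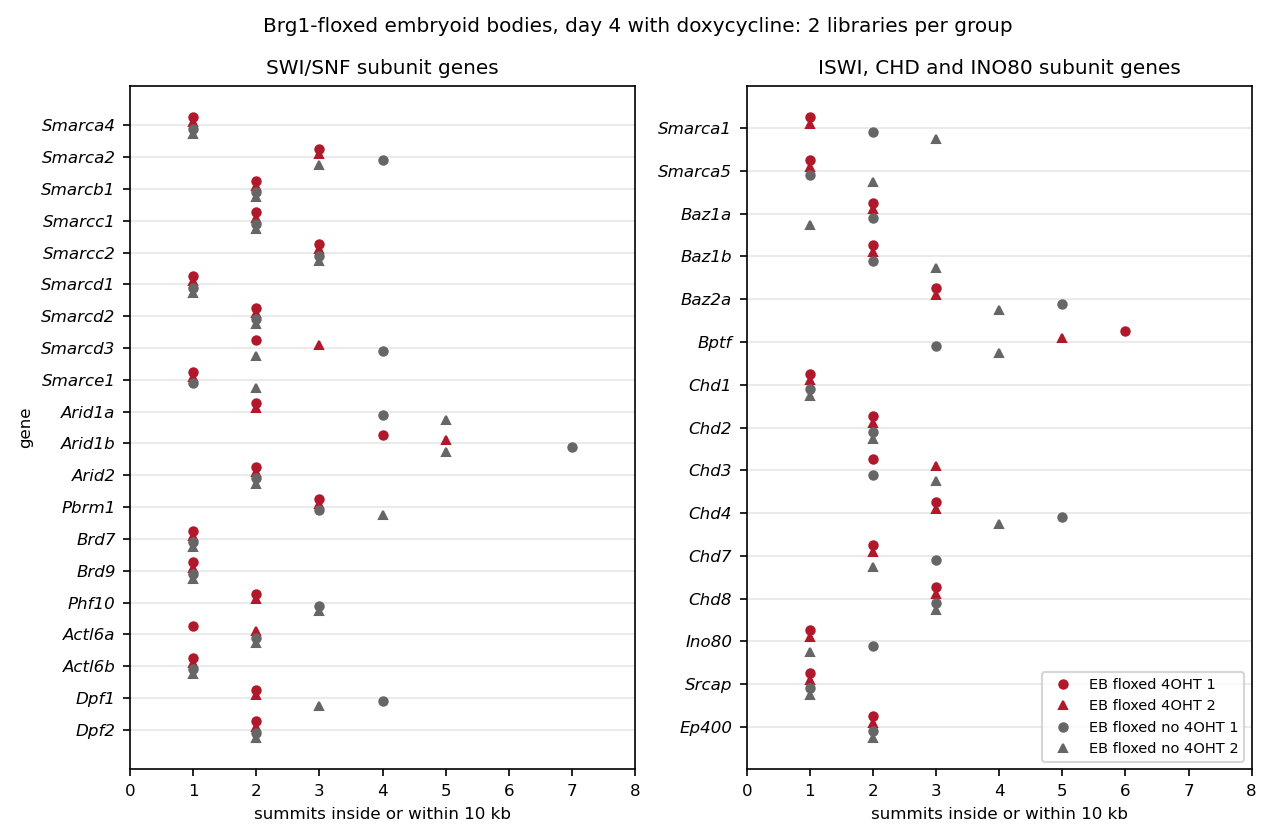
Summits inside or within 10 kb (horizontal axis) of the 20 SWI/SNF genes and of the 15 other remodeller genes in the 2 libraries with 4OHT (red) and the 2 without (grey) of Brg1-floxed EB on day 4, replicate 1 as circles and replicate 2 as triangles. The red and grey marks do not overlap for Arid1a, Phf10, Dpf1, Smarca1, Baz2a, Chd4 and Bptf.

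Site by site, 5 of the 44 SWI/SNF regions found in both libraries without 4OHT were in neither library with it, and 3 of 28 at the other remodellers, against 18.1% of 16564 regions at all genes. At gene starts the counts were 2 of 29 and 1 of 15, against 5.39% of 9226 regions at all starts. Away from starts they were 3 of 15 and 2 of 13, against 34.1% of 7338. The sites missing with 4OHT included one at the first of the 2 Arid1a starts, chr4:133756692-133757524, while the region at its other start was in all 4 libraries. They also included a site inside Arid1a, chr4:133729733-133730244, 1 inside Arid1b and one at the Phf10 start, chr17:14960918-14961091, beside a start region in all 4. At Smarca1 it was the start region, chrX:47892067-47892480. Of the libraries without 4OHT only replicate 2 had a summit within 500 bp of the Smarca1 start. At Dpf1 it was a site spanning the end of the gene interval, chr7:29317306-29317819, seen in 5 EB lists and 0 MEF lists. At Baz2a it was a site spanning the beginning of the gene interval, chr10:128090916-128091407. It counts as away from the RefSeq start used, which lies at position 128092783. At Chd7 it was a site inside the gene, chr4:8725559-8725661. The reverse, a site in both 4OHT libraries and in neither control, was found once, inside Chd3 (chr11:69368595-69368833).

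The second question was whether Brg1 knockdown changed these genes in MEF. KD and no-KD lists differ in the written form of their scores as well as in the knockdown, so processing and knockdown cannot be told apart. A gene was called lower where its count in KD MEF was at most that without KD divided by 2 and at least 2 summits less, and higher the other way round. On day 0, 5 of 19 SWI/SNF genes and 5 of 14 others were lower in KD MEF, against 29.6% of 13245 genes, and 0 were higher, against 1.8%. Arid2 had 4 summits in KD MEF and 13 without KD. Arid1a had 4 in KD MEF and 10 without KD, and Smarcd3 had 4 and 9. Smarce1 had 1 in KD MEF and 5 without, and Brd7 had 3 and 6. Of the others, Chd3 had 1 in KD MEF and 6 without, Ep400 had 3 and 7, and Chd2, Chd7 and Ino80 were also lower. Smarca4 had 1 in KD MEF and 2 without, and Pbrm1 had 8 and 5, the largest difference upwards. Arid1b, with 11 in KD MEF and 16 without, and Baz2a, with 5 and 8, were lower by less than the call asks. The members lower were 26.3% and 35.7% of those tested, and the KD list held 36730 summits, against 62028. With lists of equal length 1 of 17 SWI/SNF genes (Arid1a) and 1 of 14 others (Chd7) were lower, against 7.97% of all genes, and 2 of 17 (Smarca2 and Pbrm1) and 0 of 14 were higher, against 10.1%.

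On day 1 with dox, 5 of 18 SWI/SNF genes were lower in KD MEF (Smarcd3, Smarce1, Arid1a, Pbrm1 and Dpf1) and 5 of 14 others (Baz1a, Baz2a, Bptf, Chd7 and Ep400), against 33.5% of 12083 genes. Dpf2 was higher, 1 of 18, against 1.49%, with 4 summits in KD MEF and 2 without. None of these Dpf2 summits lay over 250 bp from one of the other list, so no site was gained. Arid1a had 3 in KD MEF and 7 without. Dpf1 had 0 in KD MEF and 3 without, Chd7 had 0 and 4, and Baz1a had 0 and 3. The direction is that of the list lengths, 26882 with KD and 50015 without. Arid1b, with 12 in KD MEF and 19 without, and Smarcc2, with 7 and 5, were not called. Smarca4 had 2 in both lists. At equal list lengths 0 of 17 SWI/SNF genes and 1 of 11 others (Ep400) were lower, against 8.8% of all genes, and 2 of 17 (Brd7 and Dpf2) and 1 of 11 (Bptf) were higher, against 12.6%, so the direction of Bptf turned.

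On day 2 with dox the direction turned, as did that of the lists, with 37772 summits in KD MEF and 26217 without. Among SWI/SNF genes 2 of 17 were higher in KD MEF, Smarca2 with 8 and 2 summits and Smarcd3 with 4 and 0, and 3 of 13 others were higher, Baz1a, Chd1 and Ep400, against 27.8% of 10839 genes. Lower were 1 of 17 (Phf10, with 1 in KD MEF and 4 without) and 0 of 13, against 3.84%. At Smarca2, 6 of the KD summits had no partner within 250 bp in the list without KD. Arid1b had 13 in KD MEF and 9 without, which is not a 2-fold difference, and Bptf had 5 and 7. Smarca4 had 2 in KD MEF and 1 without. With lists of equal length 2 of 16 SWI/SNF genes (Smarca2 and Smarcd3) and 1 of 11 others (Ep400) were higher, against 13% of all genes, and 2 of 16 (Pbrm1 and Phf10) and 1 of 11 (Bptf) were lower, against 9.09%.

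On day 7 with dox, 6 of 10 SWI/SNF genes and 3 of 7 others were lower in KD MEF, against 42% of 5486 genes. Actl6a was higher, 1 of 10, against 4.08%, with 4 summits in KD MEF and 2 without. Arid1b had 2 in KD MEF and 7 without. Smarca2 had 1 in KD MEF and 6 without, Smarcc2 had 0 and 4, and Arid2 had 2 and 6. Smarcd2, Arid1a, Baz1b, Baz2a and Chd8 were the other lower genes. The members together had 23 summits in KD MEF and 65 without, a ratio of 0.354, against 0.547 over all genes and 0.741 over whole lists. The uninduced KD MEF of the same day stood alike, with 25 summits at the members and 19 of 35 at 0, so the low counts of day 7 are in both KD lists. At 0 in both were Smarca4, Smarce1, Arid1a, Brd7, Actl6b, Dpf1, Baz1a, Baz1b, Baz2a, Chd2, Chd3, Chd7 and Srcap. With dox Smarcb1, Smarcc1, Smarcc2, Smarcd3, Dpf2 and Chd4 were also at 0, and without dox Smarcd2, Arid2, Pbrm1, Brd9, Phf10 and Ino80. Over all genes 70.1% were at 0 with dox and 73.1% without. Smarca4 had 1 summit in the day-7 list without KD. At equal list lengths 5 of 8 SWI/SNF genes (Smarca2, Smarcc2, Smarcd2, Arid1b and Arid2) and 1 of 5 others (Chd8) were lower, against 28.2% of all genes, and 1 of 8 (Actl6a) and 0 of 5 were higher, against 9.88%. Summits near MEF and progenitor markers moved in the direction of the members in the KD comparisons. Those near EB markers went the other way on days 2 and 7, and those near neuron markers on day 7. The MEF markers had 27, 20, 35 and 4 in KD MEF on days 0, 1, 2 and 7, against 61, 37, 13 and 7 without KD. The progenitor markers had 11, 6, 7 and 2 in KD MEF, against 26, 21, 3 and 3 without KD. The EB markers had 5, 5, 7 and 3 in KD MEF, against 12, 10, 9 and 2 without KD. The neuron markers had 13, 12, 12 and 8 in KD MEF, against 24, 19, 11 and 5 without KD. Their part in the members' counts was not tested.

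**Figure D5:**
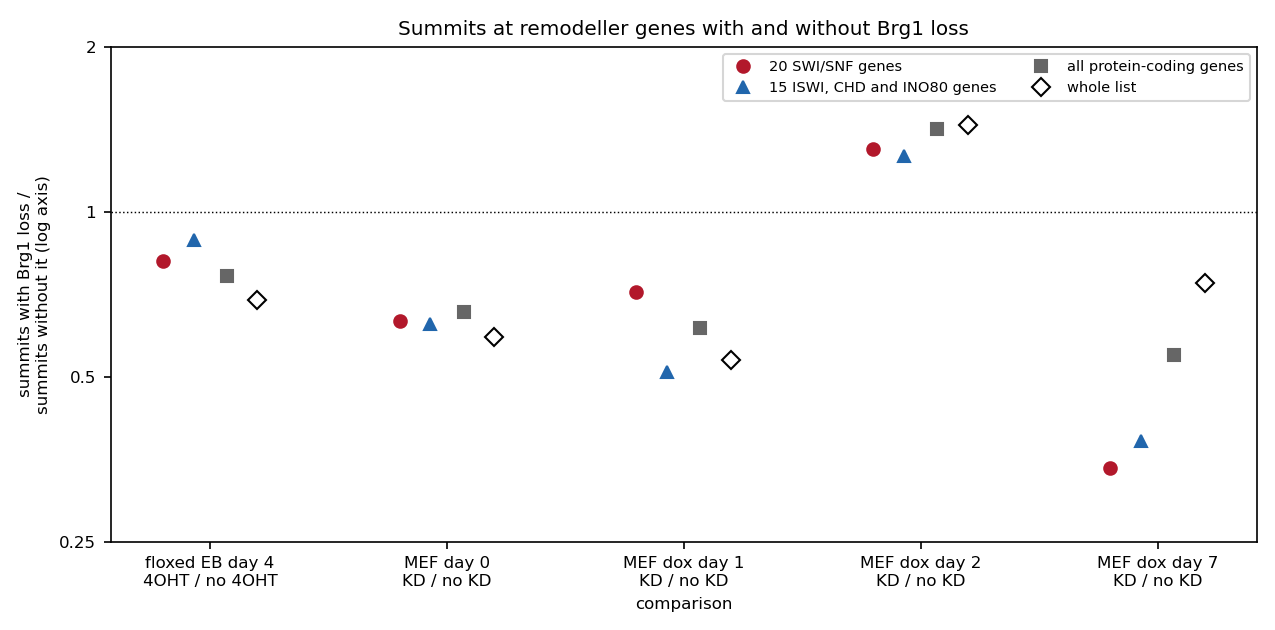
Ratio of summits with Brg1 loss to summits without it (vertical log axis) in the 5 comparisons (horizontal axis), for SWI/SNF genes (circles), other remodeller genes (triangles), all protein-coding genes (squares) and whole lists (diamonds). The SWI/SNF ratio is 0.814 in floxed EB and 0.631, 0.713, 1.3 and 0.341 in MEF on days 0, 1, 2 and 7.

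No difference between SWI/SNF and the other remodellers was detectable in the 4 KD comparisons. SWI/SNF genes held 61.9% of the members' summits in KD MEF and 61.7% without KD on day 0, a difference of 0.23 percentage points (Newcombe 95% interval -11.6 to 11.8, counting error only). The difference was 7.41 points on day 1 (-5.33 to 19.3), 0.61 on day 2 (-13.1 to 14.6) and -2.48 on day 7 (-25.2 to 17.5). Every interval includes 0, and their widths allow differences of more than 10 points either way except on day 1, where the lower bound is -5.33. The intervals treat summits as independent draws, although the lists share sites and 1 site can hold several summits, so they do not measure the error between lists. Of the regions in all 3 MEF lists of days 0, 1 and 2 without KD, 2 of 35 at SWI/SNF genes were in none of the 3 KD lists of those days, and 0 of 20 at the others, against 3.45% of 13955 regions at all genes. These were the narrow Arid2 region described above and a region inside Brd7, chr8:88357551-88357670, which was in the day-2 KD list without dox.

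A further 49 remodeller genes that are not members (such as Ss18, Mta1, Hdac1, Ruvbl1 and Yy1) were counted in the same way. With 4OHT 6 of 49 were lower without overlap and 0 higher, led by Chd9 (6 and 7 summits with 4OHT, against 8 and 10), Dpf3 (1 and 1, against 4 and 2) and Gatad2a (4 and 5, against 7 and 6). On day 0, 13 of 46 were lower in KD MEF and 1 higher (Bcl11a), with Mta1 at 0 in KD MEF and 7 without KD. On day 1, 14 of 44 were lower and 0 higher, with Bicral at 5 in KD MEF and 12 without. On day 2, 1 of 43 was lower (Yy1) and 7 were higher, with Chd6 at 6 in KD MEF and 2 without. On day 7, 8 of 17 were lower and 0 higher, with Yy1 at 0 in KD MEF and 4 without. The backgrounds are those given above for the members.

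MEF without knockdown had fewer summits after Etv2 induction, at the members and over all genes. The ratios to day 0 were 0.826, 0.479 and 0.389 at the members on days 1, 2 and 7. Over all genes they were 0.841, 0.472 and 0.325. The 3 time points share the day-0 list, so dox and time in culture cannot be told apart. On day 1, 3 of 19 SWI/SNF genes (Smarcc1, Arid2 and Phf10) and 3 of 14 others (Chd2, Chd3 and Ino80) were lower, against 13.6% of 13515 genes, and 0 were higher, against 2.86%. On day 2, 8 of 19 and 8 of 14 were lower, against 51% of 13192 genes, and 0 were higher, against 1.21%. On day 7, 11 of 19 and 11 of 14 were lower, against 66.3% of 13154 genes, and 0 were higher, against 1.16%. Smarcd3 had 9, 6, 0 and 1 summits on days 0, 1, 2 and 7, and Arid1a had 10, 7, 2 and 2. Arid2 had 13, 6, 5 and 6, and Ep400 had 7, 4, 1 and 2. By contrast Smarcc2, with 7, 5, 5 and 4, and Actl6a, with 2, 2, 3 and 2, were called on no day. Arid1b had 16, 19, 9 and 7. List length was 62028, 50015, 26217 and 18418 on these days. The MEF markers had 61, 37, 13 and 7 summits and the progenitor markers 26, 21, 3 and 3 on the same days, and their part in the members' counts was not tested. On day 1 at equal list lengths, 0 of 19 and 0 of 14 were lower, against 6.14% of all genes, and 0 were higher, against 6.46%. On day 2, 1 of 15 (Arid1a) and 2 of 13 (Chd7 and Ep400) were then lower, against 10.4%, and 0 of 15 and 1 of 13 (Bptf) higher, against 9.48%. On day 7, 0 of 14 and 0 of 8 were lower, against 17.1%, and 4 of 14 (Smarca2, Smarcd2, Arid1b and Arid2) and 0 of 8 were higher, against 13.1%, so the directions of Arid1b and Arid2 turned.

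Flk1-positive MEF of day 7 had more summits at these genes than the unsorted culture, a ratio of 1.446, against 1.629 over all genes. Higher were 4 of 17 SWI/SNF genes (Smarcc1, Smarcd3, Arid1a and Brd9) and 1 of 10 others (Chd1, with 5 and 1 summits), against 35.8% of 8870 genes. Lower were 0 of 17 and 0 of 10, against 2.92%. Smarca2 had 10 in Flk1-positive and 6 in unsorted cells, which is less than a 2-fold difference. The sorted list held 29520 summits and the unsorted list 18418. With both lists at equal length, 0 of 13 SWI/SNF genes and 0 of 9 others were higher, against 15.2% of all genes, and 4 of 13 (Smarcc2, Smarcd2, Arid1a and Arid2) and 1 of 9 (Bptf) were lower, against 10.5%, so the direction of Arid1a turned. The progenitor markers had 12 summits in sorted and 3 in unsorted cells, the MEF markers 13 and 7, and their part was not tested.

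In KD MEF, culture with dox was compared with no dox on the same day. On day 1, 2 of 16 SWI/SNF genes (Smarcd3 and Pbrm1) and 4 of 12 others (Baz1a, Baz2a, Chd2 and Ep400) were lower with dox, against 17.6% of 10640 genes. Higher were 2 of 16 (Brd7 and Dpf2) and 0 of 12, against 3.62%. On day 2, 1 of 18 (Dpf1, with 0 summits with dox and 3 without) and 1 of 15 (Chd7, with 0 and 2) were lower, against 10.1% of 11571 genes. Higher were 1 of 18 (Smarca2, with 8 with dox and 4 without) and 0 of 15, against 5.77%. On day 7, where 4 genes of each class could be tested, Arid2, Phf10 and Actl6a were higher, 3 of 4, and 0 of 4 others, against 19.5% of 3028 genes. Bptf was lower, 1 of 4 others, and 0 of 4 SWI/SNF genes, against 10.1%. The lists with dox held 26882, 37772 and 13644 summits on days 1, 2 and 7, and those without 35635, 44493 and 11188. With lists of equal length on day 1, 1 of 16 (Pbrm1) and 2 of 10 (Baz2a and Ep400) were lower, against 7.82% of all genes, so the calls of Smarcd3, Baz1a and Chd2 ended. Brd7 and Dpf2 were still higher, 2 of 16 and 0 of 10, against 7.73%, but not with summits within 500 bp counted as 1. On day 2 with equal lengths, 1 of 18 (Dpf1) and 1 of 14 (Chd7) were lower, against 6%, and 2 of 18 (Smarca2 and Smarcc1) and 0 of 14 higher, against 8.41%. With full lists and summits within 500 bp counted as 1, 0 SWI/SNF genes were higher on day 2, so the call of Smarca2 ended. On day 7 the same genes were called at equal lengths, 3 of 4 and 0 of 4 higher, against 11.7%, and 0 of 4 and 1 of 4 lower, against 19.1%. With full lists and summits within 500 bp counted as 1, 2 SWI/SNF genes were higher on day 7. In that setting 0 others were lower, so the call of Bptf ended.

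In EB at 12 h, induction left the counts close. Brd9 was lower, 1 of 20, with 1 summit in induced and 3 in uninduced EB, and 0 of 15 others were lower, against 5.79% of 15567 genes. None of the 35 was higher, against 4.25%. In Flk1-positive against unsorted induced EB, Brd7 (1 and 3 summits) and Dpf1 (3 and 7) were lower, 2 of 18, and 0 of 15 others, against 13.1% of 14953 genes. None was higher, 0 of 18 and 0 of 15, against 1.58%. Arid1b had 11 in Flk1-positive EB and 17 in unsorted induced EB, and 11 in uninduced EB. Smarca4 had 2 in each of these lists, which held 58004, 77987 and 85498 summits.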

How the data were processed

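ATAC-seq summit lists were deposited for 34 samples. The submitters' processing notes name Bowtie2 2.2.4, MACS2, HOMER and the mm10 build without their roles. Summits carry a deposited score read here as a −log10 q-value, since no list goes below 1.301, the value of a q of 0.05. How replicates were combined and how duplicates were treated is not given in the sources used here. Read depth was not analysed here.

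Summits on chromosomes 1 to 19 and X were counted inside or within 10 kb of gene intervals from a RefSeq table (GRCm38.p6, the mm10 assembly), which gives genes but not exons. No summit fell in the windows of 2 members at once. All 35 members were found, and 28 have a RefSeq start. Genes were tested with at least 2 summits in either pooled list, or 1 in any floxed library. The score was used only to filter or rank summits within a list. For floxed libraries the test is an exact permutation test over 4 libraries, with no p below 0.333 (two-sided). Intervals are 95%, cover counting error only and treat summits as independent draws. Counting was tested on simulated data. The tools were scipy 1.17.1, pandas 2.3.3, matplotlib 3.10.9 and numpy 2.4.6 under Python 3.11.15.

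The members and lists were chosen with earlier results of these data known. The rule for named genes takes, in each comparison, Smarca4, every called member, the 3 largest decreases and increases of each class and members at 0, and of further remodeller genes at most 3 each way; uncalled members it takes are named only in part. Alternatives were the gene window, a score minimum of 10, equal list lengths, merged summits, left-out libraries and the replicate block. Same-numbered floxed libraries did not deviate together (correlation -0.037 over 16814 genes).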

Additional observations from a re-analysis of the deposited data

Results flagged for a closer look

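Each result here is a member called in opposite directions in comparisons of the same kind. Each value is a difference in summits between 2 pooled lists, and the difference between the comparisons was not tested.

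Brg1 KD against no KD in MEF gave Smarca2 a difference of 6 on day 2 and of -5 on day 7, both with dox. Smarcd3, the heart and muscle subunit, had -5 on day 0, -3 on day 1 and 4 on day 2. Baz1a had -3 on day 1 and 2 on day 2. Ep400 had -4 on day 0, -3 on day 1 and 2 on day 2. On day 2 the list without KD was the shorter one, and on the other days the KD list was. With lists of equal length Smarca2 was still higher on day 2 and lower on day 7, and Ep400 lower on day 1 and higher on day 2. The lower calls of Smarcd3 on days 0 and 1 and of Ep400 on day 0 then ended, as did both calls of Baz1a.

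Dox against no dox gave opposite calls in KD and no-KD MEF at Smarca2 and Arid2. At Smarca2 on day 2 the difference was 4 in KD MEF and -3 in MEF without KD, and at Arid2 on day 7 it was 2 in KD MEF and -7 in MEF without KD. With summits within 500 bp counted as 1, Smarca2 was no longer higher in KD MEF on day 2. The no-KD comparison uses the day-0 list as its control and the KD comparison a list of the same day. On day 2 the lists with dox were the shorter ones in both arms. At equal list lengths neither contrast was left: in MEF without KD Smarca2 on day 2 had 2 summits with dox and 2 without, and Arid2 on day 7 had 6 with dox and 1 without, the direction it has in KD MEF.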

How the results depend on the processing

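The SWI/SNF share of member summits moved out of its interval under 1 setting: on day 1 of the KD comparison a score of at least 10 gave -12.61 points. The members lower in both 4OHT libraries were 3 SWI/SNF genes and 3 others. They became 9 and 4 with a 50 kb window, 0 and 0 with a score of at least 10, and 2 and 1 with equal list lengths. No share of all genes is given here for the 50 kb window, the score minimum or merged summits, so those counts have no background. With 1 library left out the lower SWI/SNF genes ranged from 3 to 6 and the others from 3 to 5, against the shares of all genes given above. With the replicate block, which pairs same-numbered libraries, they were 3 and 3, so the block changed no call. In the KD comparisons equal list lengths moved most counts: lower SWI/SNF members fell to 1 on day 0 and 0 on day 1, and other members to 1 on both days. The cause was not tested. Equal lengths make only the number of summits alike, while KD and no-KD lists also differ in the written form of their scores. Counting summits within 500 bp as 1 left the 4OHT counts at 3 and 3 and the shares within their intervals, at -1.76 points with 4OHT and -2.14, 1.54, -0.18 and -2.40 on the KD days. Applied to the 16 KD call counts, a step chosen after seeing the data, it left 13 within 1.5 times; the other 3 came to 0 as the calls of Dpf2 on day 1, Phf10 on day 2 and Actl6a on day 7 ended. Single members changed too, such as Arid2, no longer lower on day 7. Counts of 0 to 19 summits a gene limit what can be seen, and pooled lists give no replicate error.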
